A study of Mus musculus with 22 samples.

Results

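The genes described here are those of glycolysis, the pentose phosphate pathway and lactate metabolism, in starved mouse fibroblasts that were given either the transcription factor E2F1 or serum. They were chosen as a list of 37 gene symbols, and 34 of the 37 were found in the deposited table of 11208 genes. The other 3, Slc2a3, Aldoc and Slc16a3, were not analysed here. All 34 passed the filter on low values, a value of at least 10 in at least 2 libraries, which removed no gene of the table.

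Glycolysis turns glucose into pyruvate and yields ATP and precursors for growth. Glucose enters through transporters such as Slc2a1, is phosphorylated by hexokinases, and is committed to breakdown by phosphofructokinase, whose allosteric activator fructose 2,6-bisphosphate is made and removed by the Pfkfb enzymes. Pyruvate is reduced to lactate by lactate dehydrogenase or oxidised in mitochondria by pyruvate dehydrogenase, which the Pdk kinases inhibit by phosphorylation. The pentose phosphate pathway branches off after hexokinase and supplies NADPH and the ribose of nucleotides, for which cells entering the cell cycle have a high demand.

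NIH/3T3, an established line of mouse embryonic fibroblasts, carried a stably integrated doxycycline-inducible construct for E2F1 or the empty vector (EV). All 22 libraries came from cells starved for 48 h in 0.25% heat-inactivated serum, and the question was how E2F1 alone, or serum, moves such resting cells back towards the cell cycle. There were 11 groups of 2 libraries: the E2F1 line at 0, 2, 6 and 12 h of 500 ng/ml doxycycline, the EV line at 0, 2, 6 and 12 h of the same doxycycline, and the EV line at 2, 6 and 12 h after 10% serum. The EV 0 h libraries were the reference for both EV series, and whether each line is 1 clone is not given in the sources used here. Nothing in the labels says that replicates came from separate cultures, so p-values measure the spread between these samples, which may be technical.

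Summed normalized counts were 34014608 to 46057140 per library, highest after serum at 2 h and 6 h. All 7 fibroblast markers were in the table, and 0 of 4 epithelial, 0 of 3 leukocyte, 0 of 3 endothelial and 0 of 3 muscle markers were. Lpl, at 100 to 1401, was 1 of 4 adipocyte markers and the 1 found. E2f1 itself stood in the E2F1 line at 1703 and 1637 before doxycycline, 1535 and 1755 at 2 h, 3806 and 3602 at 6 h, and 2683 and 2845 at 12 h, against 1307 to 1655 in the EV line without serum. All 8 genes of a check list of known E2F targets, E2f1 included, rose at 6 h and 12 h in the E2F1 line. E2F1 is the factor induced by design. The labels do not say whether the E2f1 values come from the construct or the cells' own gene, so their rise is no test of a target. Of all genes, 28.8% and 31.8% were called higher at these times. Some libraries stood apart. This was read from 7 genes on which the lines stand at least 8-fold apart, all higher in E2F1 cells and chosen without any 2 h library. Positions run from the EV line at 6 h of doxycycline (0%) to the E2F1 line at 0 h. The EV libraries at 2 h of doxycycline lay 14.6% and 8.84% of the way, and those at 2 h of serum 5.47% and 4.10%. The E2F1 libraries at 2 h lay 57.9% and 55.4% of the way, those at 6 h 74.2% and 83.9%, and those at 12 h 97.2% and 80.1%. All 2 h results rest on the 2 h libraries described here. Replicate 2 of EV 0 h was higher than replicate 1 in all 9 genes made up of the 8 lower glycolysis genes and Ldha. The median difference was 0.50 on the log2 scale, beside medians of −0.10 to 0.34 in the other groups. All 9 were also higher in replicate 2 in the E2F1 line at 2 h and the EV line at 6 h of doxycycline and 2 h of serum. EV 0 h thus stood apart in the size of the difference, not in its direction.

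Serum and E2F1 both moved many of these genes, but not in the same pattern. Serum raised the glucose transporter Slc2a1, the hexokinase Hk2 and the lactate dehydrogenase subunit Ldha within 2 h and lowered Txnip and the kinases Pdk2 and Pdk4. E2F1 lowered Pdk2 and Pdk4 too and raised Pdk3, and lowered more of these genes than it raised. A gene is called where limma's adjusted p was under 0.05 on log2(value + 1), and changes are log2 changes ± SE with 2 libraries in each group. Adding 1 makes the changes of low genes smaller than they are. After serum, 22 of the 34 genes were called at 2 h (13 higher, 9 lower), 26 at 6 h (17 higher, 9 lower) and 27 at 12 h (18 higher, 9 lower). Over all genes of the table, 70.9%, 67.5% and 65.7% were called at these times, so the count at 2 h was below the background share and those at 6 h and 12 h were above it. The shares of all genes called higher were 37.5%, 36.5% and 36%, and those called lower 33.5%, 31% and 29.7%. The median change of the 34 genes was 0.17, 0.26 and 0.35 at 2, 6 and 12 h, beside 0.03, 0.03 and 0.05 over all genes. The split depended on scaling. Quantile normalization gave 10 higher calls against 14 lower at 2 h, and 15 against 12 at 12 h. Setting libraries to equal totals gave 8 higher against 16 lower at 2 h, and 14 against 13 at 6 h. Equal totals moved the median of all genes after serum by −0.37 at 2 h and −0.21 at 6 h.

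In the E2F1 line, 1 of the 34 was called at 2 h, 16 at 6 h (6 higher, 10 lower) and 20 at 12 h (5 higher, 15 lower), beside 1.86%, 51.7% and 61.5% of all genes. These shares were close to the background. Of all genes, 0.865%, 28.8% and 31.8% were called higher and 0.99%, 22.9% and 29.7% lower. The call at 2 h was lost without either 2 h library or without replicate 2 of 0 h, with quantile normalization there was 1 higher and 1 lower call at 2 h, and the 16 at 6 h became 10 without replicate 1 of that group. The median change at 12 h was −0.16, beside −0.02 over all genes. Doxycycline alone in the EV line called 3 genes at 2 h, 0 at 6 h and 0 at 12 h, beside 7.35%, 0.134% and 4.17% of all genes. Over all genes 4.93%, 0.134% and 0.749% were higher and 2.43%, 0% and 3.42% lower. At an unadjusted p under 0.05, limma gave 0 of the 34 at 6 h and 9 at 12 h. Without replicate 1 of EV 0 h, 8 genes were called at 12 h, all lower (Pfkl, Aldoa, Tpi1, Gapdh, Pgk1, Pgam1, Eno1 and Ldha), and 6 at 2 h, of which 2 were higher. Without replicate 2 of the 2 h group, 0 were called at 2 h. Shares of all genes are not given for the counts at an unadjusted p or with a library left out, so these lack a background. No other tool was run.

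**Figure D1:**
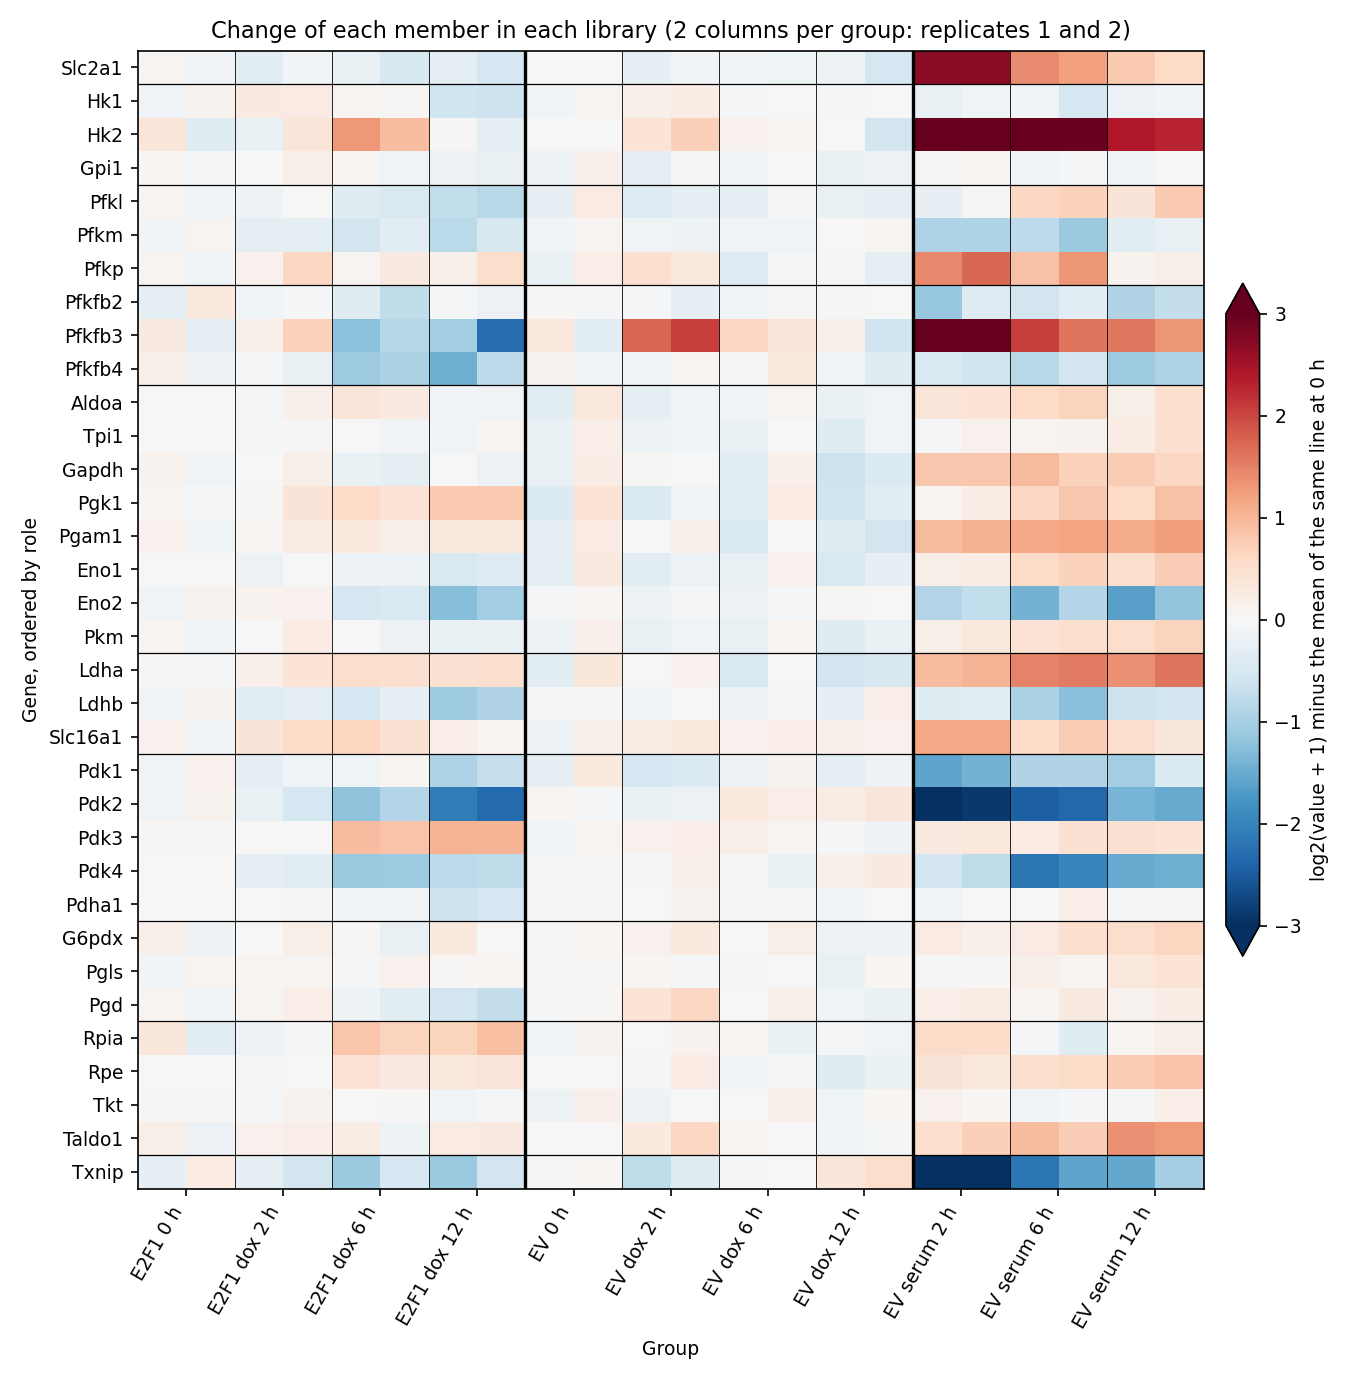
Log2(value + 1) of the 34 genes (rows, by role) in each of the 22 libraries (columns, 2 per group), minus the mean of the same line at 0 h, with colour limits at −3 and 3. The serum columns hold the deepest colours, as in Slc2a1, Hk2 and Pfkfb3 (higher) and in Pdk2, Pdk4 and Txnip (lower).

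Promoter sequences of 5 genes are shown because the results below turn on these genes, and they were chosen after their values were seen. They are the 250 bases before a RefSeq start site (GRCm38.p6, each printed 5′ to 3′ on the gene's strand), ended before the first exon of GENCODE for Slc2a1, at chr4:119108495-119108710 for Slc2a1, chr6:82774455-82774704 for Hk2 (minus strand), chr7:46845554-46845803 for Ldha, chr3:96557707-96557956 for Txnip and chr11:95041372-95041621 for Pdk2 (minus strand). Ldha and Pdk2 have 2 RefSeq start windows each, and the one with more matches is shown. The other window of Ldha holds 1 hypoxia core and that of Pdk2 holds 0, and neither holds CACGTG. Capitals mark the letters ACGTG or GCGTG on either strand, the core of the hypoxia response element, which HIF binds.
Slc2a1: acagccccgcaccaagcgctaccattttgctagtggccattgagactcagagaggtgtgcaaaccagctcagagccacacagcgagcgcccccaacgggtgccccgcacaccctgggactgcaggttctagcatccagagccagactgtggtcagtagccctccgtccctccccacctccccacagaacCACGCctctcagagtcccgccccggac
Hk2: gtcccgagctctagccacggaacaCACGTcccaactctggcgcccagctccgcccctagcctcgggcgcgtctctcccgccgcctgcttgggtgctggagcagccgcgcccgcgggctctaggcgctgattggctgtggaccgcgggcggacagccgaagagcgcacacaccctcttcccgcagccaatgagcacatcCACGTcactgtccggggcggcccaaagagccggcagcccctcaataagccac
Ldha: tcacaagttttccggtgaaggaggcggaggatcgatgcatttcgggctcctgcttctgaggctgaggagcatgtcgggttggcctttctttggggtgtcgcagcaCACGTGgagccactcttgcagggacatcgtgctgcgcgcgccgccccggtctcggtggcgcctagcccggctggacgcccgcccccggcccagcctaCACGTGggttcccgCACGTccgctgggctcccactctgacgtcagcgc
Txnip: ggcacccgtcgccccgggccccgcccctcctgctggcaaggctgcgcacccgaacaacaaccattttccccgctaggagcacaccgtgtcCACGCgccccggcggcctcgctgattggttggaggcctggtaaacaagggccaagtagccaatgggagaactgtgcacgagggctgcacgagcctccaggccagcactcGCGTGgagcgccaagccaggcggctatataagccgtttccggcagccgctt
Pdk2: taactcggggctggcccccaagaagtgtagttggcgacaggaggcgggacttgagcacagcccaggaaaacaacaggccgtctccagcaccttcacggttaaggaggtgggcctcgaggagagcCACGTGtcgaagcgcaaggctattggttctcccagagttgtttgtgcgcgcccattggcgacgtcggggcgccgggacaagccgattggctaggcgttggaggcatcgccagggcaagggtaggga
In the windows shown for Ldha and Pdk2 the marked letters run into CACGTG, the E-box that Myc and the glucose sensors of the Mondo family bind, and which contains ACGTG. The search took all 250 bases before each RefSeq start, without the cut made for Slc2a1, and none after it. It covered 50 windows for the 34 genes and counted a gene where any of its windows held the letters. At least 1 hypoxia core was found for 30 of the 34 genes (88.24%) beside 64.01% of the 8609 genes of the table with a window, and CACGTG for 6 of the 34 genes (17.65%) beside 10.2%. Those 6 were Ldha, Pdk2, Pfkfb2, Pfkfb3, Pfkm and Slc16a1. Only these exact letters were searched, so other forms of the E-box were not counted. The E2F letters TTTGGCGC or TTTCGCGC, searched on both strands, were found for 0 of the 34 genes, beside 1.6%. A match is a description of letters, not a bound site.

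Slc2a1 (GLUT1, chr4:119108711-119137983 in GRCm38 with GENCODE M21) is the main glucose transporter of fibroblasts. It was at 3947 and 3954 in the EV line at 0 h, and after serum at 25711 and 25831 at 2 h, 10503 and 9283 at 6 h, and 6810 and 5936 at 12 h. Every serum library lay above both 0 h libraries. The change was 2.71 ± 0.12 at 2 h (6.52-fold, adjusted p = 2.09e-12), 1.32 ± 0.12 at 6 h and 0.69 ± 0.12 at 12 h. Slc2a1 in the E2F1 line went the other way, from 6060 and 5470 at 0 h to 4993 and 4098 at 6 h and 4715 and 4031 at 12 h, with 4600 and 5443 at 2 h. It fell by 0.35 at 6 h (SE 0.12, adjusted p = 0.0259) and by 0.40 at 12 h (SE 0.12, adjusted p = 0.00939). The call at 6 h was lost without replicate 2 of 6 h (adjusted p = 0.263) or replicate 1 of 0 h (0.163), and that at 12 h without replicate 2 of 12 h (0.112) or replicate 1 of 0 h (0.0824). Slc2a1 under doxycycline alone was at 3311 and 3704, 3721 and 3594, and 3551 and 2760, and none of these comparisons was called. The difference between the lines at 12 h was −0.07 ± 0.18 (adjusted p = 0.780). The E2F1 change minus the serum change was −1.09 ± 0.18 at 12 h (adjusted p = 6.32e-05).

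Among the hexokinases, which trap glucose in the cell, Hk2 (chr6:82725025-82774454), the inducible hexokinase that docks on mitochondria, rose furthest of the 34 genes. It was at 539 and 528 in the EV line at 0 h and at 10297 and 10705 after 2 h of serum, 4208 and 4185 after 6 h, and 2803 and 2614 after 12 h. That is 19.6-fold at 2 h (log2 change 4.30 ± 0.22, adjusted p = 7.33e-12), 7.85-fold at 6 h and 5.07-fold at 12 h. The E2F1 line showed a single rise, at 6 h. There Hk2 went from 1061 and 636 at 0 h and 714 and 1064 at 2 h to 2028 and 1553, and was back at 837 and 665 at 12 h. The 6 h change was 1.11 ± 0.22 (2.16-fold, adjusted p = 0.000401). Hk2 under doxycycline alone was at 712 and 876, 583 and 561, and 534 and 363, with no call. Hk1, the housekeeping isozyme, was at 3813 and 4217 in the EV line at 0 h, and at 3423 and 3669, 3761 and 2798, and 3548 and 3793 after 2, 6 and 12 h of serum. Its fall by 0.31 at 6 h of serum rested on replicate 2 of that group, without which the change was −0.09 (adjusted p = 0.407), and was also lost without replicate 2 of EV 0 h (0.119) and when the fit held only the groups compared (0.123). Under doxycycline the EV line was at 4478 and 4660, 3847 and 3994, and 3876 and 3975. Hk1 in the E2F1 line was at 3541 and 4051 at 0 h, 4570 and 4490 at 2 h and 4010 and 3868 at 6 h. At 12 h it was at 2486 and 2452, below every other library of the series, and fell by 0.62 (SE 0.10, adjusted p = 5.49e-05). Levels were also taken per kilobase of exon, to set isozymes side by side. The length is that of all annotated exons of a gene joined. The transcripts of these cells may be shorter, so shares and sums of isozymes depend on this length. Per kb, Hk2 made up 16.8% and 15.2% of hexokinase transcripts in the EV line at 0 h and 81.1% and 80.7% after 2 h of serum. The summed level went from 537.21 and 582.71 to 2126.28 and 2223.46 normalized counts per kb. In the E2F1 line the Hk2 share was 30.0% and 18.3% at 0 h and 42.0% and 36.5% at 6 h. With 2 libraries against 2, an exact permutation test cannot reach the threshold, so isozyme shares are given without a test. Gpi1, which converts glucose 6-phosphate to fructose 6-phosphate, was at 12391 to 16647 in all libraries and was called in no comparison with 0 h.

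**Figure D2:**
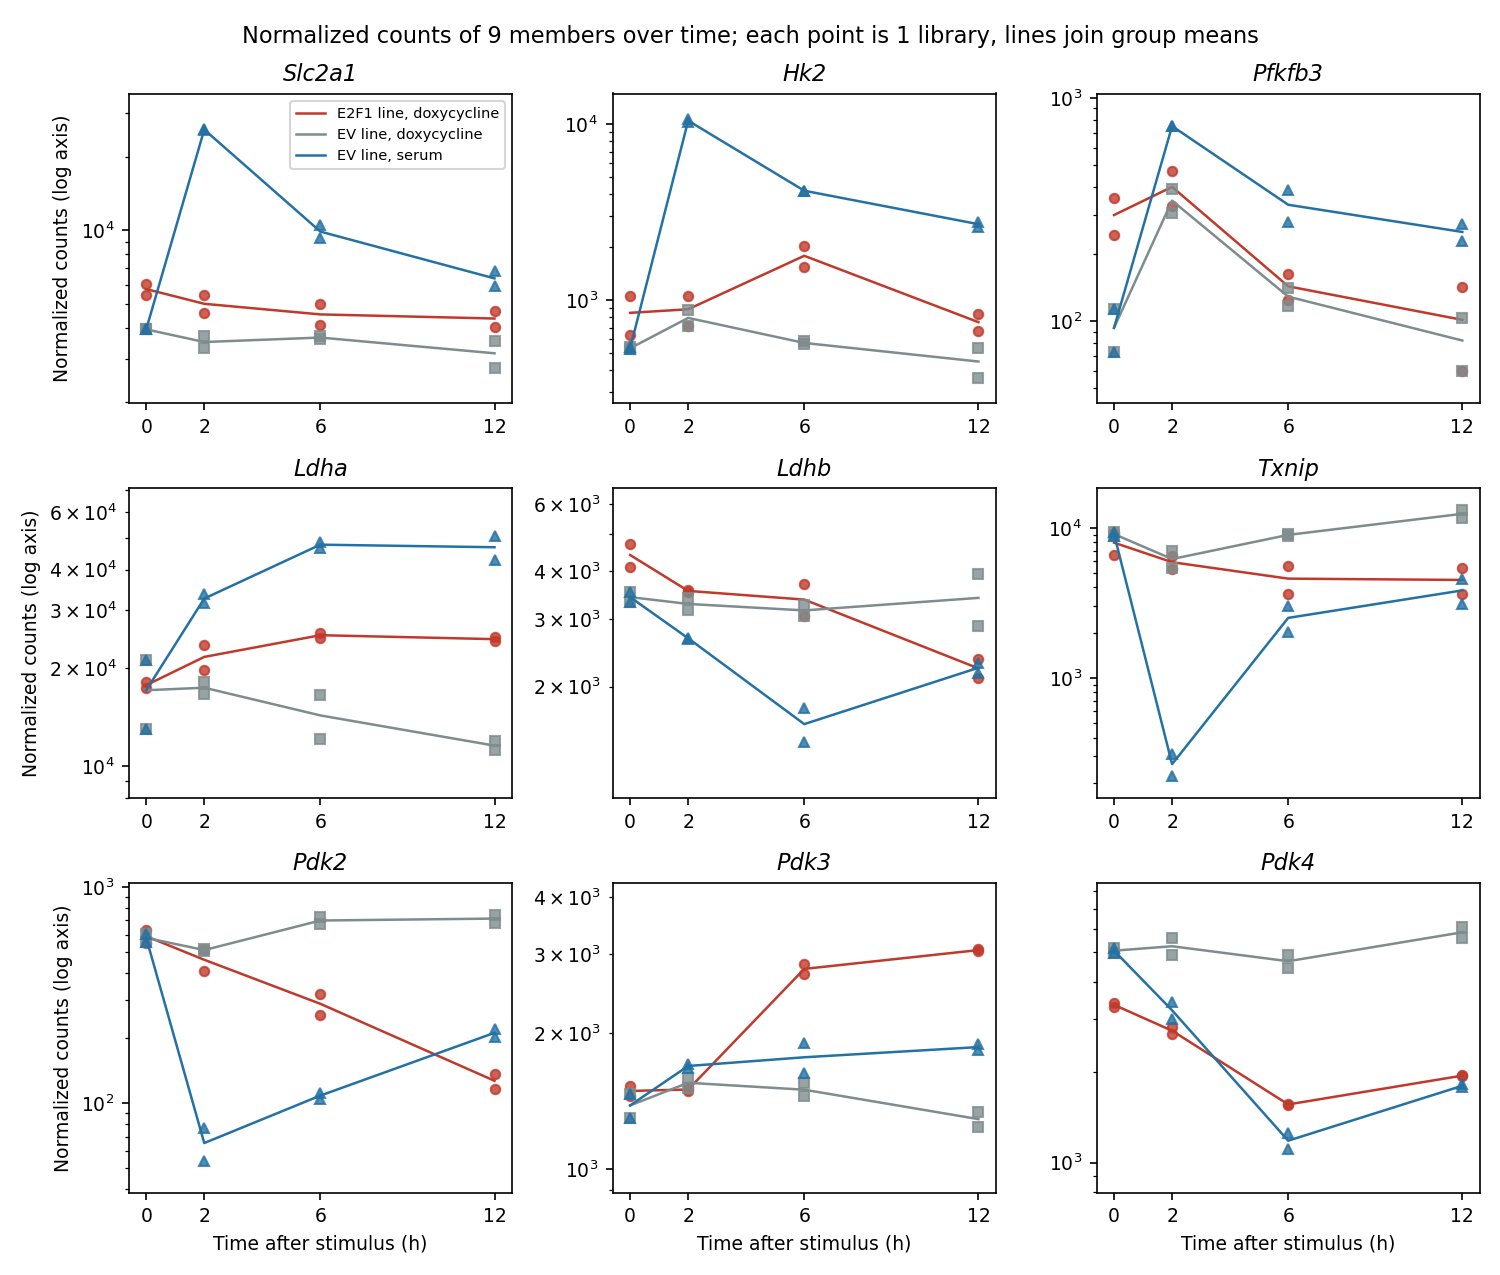
Normalized counts (log axis) of 9 genes against time after the stimulus, each point 1 library, lines joining group means, for the E2F1 line with doxycycline, the EV line with doxycycline and the EV line with serum. The serum series leaves the others by 2 h in Slc2a1, Hk2, Txnip and Pdk2, and the E2F1 series is the highest in Pdk3 at 6 h and 12 h.

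The 3 phosphofructokinase isozymes did not move together. Pfkl, the liver-type subunit, was at 4038 and 5652 in the EV line at 0 h, and at 3997 and 4883, 7363 and 7706, and 6290 and 8222 after 2, 6 and 12 h of serum. The 6 h rise was 0.66 ± 0.14 (adjusted p = 0.000526), and the 12 h rise was 0.59 ± 0.14, where the call was lost without replicate 1 of EV 0 h (adjusted p = 0.0525). Pfkl in the E2F1 line was at 4017 and 3641 at 0 h, 3415 and 3870 at 2 h, 2984 and 2799 at 6 h, and 2287 and 2150 at 12 h. It fell by 0.79 at 12 h (SE 0.14, adjusted p = 0.000114), and its fall by 0.40 at 6 h was lost without replicate 1 of 0 h (adjusted p = 0.142) or without either 6 h library (0.0553 and 0.114). The opposite directions gave a difference between E2F1 and serum of −1.38 ± 0.20 at 12 h (adjusted p = 2.27e-05). Pfkl under doxycycline alone was at 3662 and 3992, 3972 and 4667, and 4102 and 3926. Pfkm, the muscle-type subunit, fell in both series. It was at 3131 and 3466 in the EV line at 0 h and at 1746 and 1739, 1916 and 1517, and 2588 and 2829 after 2, 6 and 12 h of serum, changes of −0.92 ± 0.12, −0.95 ± 0.12 and −0.28 ± 0.12. The last was lost without replicate 2 of EV 0 h (adjusted p = 0.208) or replicate 1 of 12 h (0.202). Pfkm in the E2F1 line went from 4030 and 4483 at 0 h and 3448 and 3518 at 2 h to 2879 and 3408 at 6 h and 2430 and 3057 at 12 h. It fell by 0.64 at 12 h (SE 0.12, adjusted p = 0.00011), and the fall by 0.44 at 6 h was lost without replicate 1 of 6 h (adjusted p = 0.0752) or replicate 2 of 0 h (0.0525). Pfkm under doxycycline alone was at 3003 and 2947, 3056 and 3043, and 3284 and 3507. Pfkp, the platelet-type subunit, rose with serum from 246 and 320 to 763 and 921 at 2 h (1.58 ± 0.21) and 518 and 706 at 6 h (1.11 ± 0.21). At 12 h it was at 304 and 315, not called. E2F1 libraries were at 470 and 413 at 0 h and 483 and 679, 470 and 529, and 488 and 634 later, with no call. Pfkp under doxycycline alone was at 395 and 349, 215 and 276, and 288 and 227. Per kb, Pfkm led at EV 0 h with 60.1% and 54.4% of the family, and Pfkl led after 6 h of serum with 64.3% and 69.5%. In counts not divided by length, Pfkl was above Pfkm in both EV 0 h libraries and both libraries at 6 h of serum. The change of the leading isozyme therefore holds only per kb. In the E2F1 line Pfkm held 65.7% and 71.2% at 12 h.

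Pfkfb3 (chr2:11471433-11554077), the isozyme that mostly makes the activator, gave the widest difference between E2F1 and serum at 6 h and 12 h. After serum it was at 750 and 750 at 2 h, 387 and 279 at 6 h, and 274 and 229 at 12 h, against 114 and 73 in the EV line at 0 h. The changes were 3.03 ± 0.36 (8.14-fold, adjusted p = 4.74e-07), 1.84 ± 0.36 and 1.45 ± 0.36. Pfkfb3 in the E2F1 line went from 356 and 243 at 0 h to 124 and 163 at 6 h and 143 and 60 at 12 h, after 329 and 472 at 2 h. It fell by 1.65 at 12 h (SE 0.36, adjusted p = 0.000593), while the fall by 1.04 at 6 h was lost without replicate 1 of 0 h (adjusted p = 0.167) or of 6 h (0.14). The E2F1 line already stood 3.20-fold above the EV line at 0 h (1.68 ± 0.36, adjusted p = 0.00427, lost without replicate 1 of the E2F1 0 h group at adjusted p = 0.0676). Its 12 h libraries overlapped the EV 0 h libraries in level. Pfkfb3 was also called in the EV line at 2 h of doxycycline. It was at 305 and 390 at 2 h, and then at 141 and 117 and at 104 and 60. The 2 h change was 1.91 ± 0.36 (3.75-fold, adjusted p = 0.00365), and was lost without replicate 2 of that group (1.73, adjusted p = 0.0656). Those are the EV libraries that stood apart on the genes that distinguish the lines. Whether that bears on Pfkfb3, which is higher in the E2F1 line at 0 h, was not tested. Pfkfb4 fell in both series. It was at 389 and 335 in the EV line at 0 h and at 263 and 237, 204 and 241, and 170 and 191 after serum, and ended at 0.501 of the 0 h level (SE 0.22 on the log2 scale, adjusted p = 0.000574). Its serum calls at 2 h and 6 h were lost with quantile normalization (adjusted p = 0.541 and 0.0905), without replicate 1 of EV 0 h (0.18 and 0.0669), without replicate 1 of the serum group (0.059 and 0.0663), and at 2 h also without replicate 2 of serum (0.15). Pfkfb4 in the E2F1 line was at 296 and 238 at 0 h, 259 and 226 at 2 h, 126 and 136 at 6 h, and 95 and 154 at 12 h, changes of −1.01 ± 0.22 at 6 h and −1.13 ± 0.22 at 12 h. Pfkfb4 under doxycycline alone was at 340 and 376, 346 and 439, and 336 and 281. Pfkfb2 was at 322 and 310 in the EV line at 0 h and at 142 and 240, 217 and 250, and 168 and 192 after serum. It fell by 0.77 at 2 h of serum and 0.81 at 12 h (SE 0.23 each), the 2 h call being lost with quantile normalization (adjusted p = 0.167) or without replicate 1 of that group (0.156). Pfkfb2 in the E2F1 line was at 276 and 412, 313 and 328, 264 and 199, and 326 and 299 from 0 h to 12 h, with no call. Pfkfb2 under doxycycline alone was at 308 and 267, 287 and 326, and 306 and 321.

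The 8 genes of lower glycolysis, from aldolase to pyruvate kinase, mostly rose with serum. At 12 h of serum all 8 were called, 7 higher and Eno2 lower, at 6 h 7 were called, 6 higher and Eno2 lower, and at 2 h 4 were called, 3 higher and Eno2 lower. Of all genes, 70.9%, 67.5% and 65.7% were called at 2, 6 and 12 h of serum, and 37.5%, 36.5% and 36% were called higher. In the E2F1 line 0, 1 and 3 of the 8 were called at 2, 6 and 12 h, beside 1.86%, 51.7% and 61.5% of all genes. Pgam1, phosphoglycerate mutase, rose furthest. It was at 8125 and 11462 in the EV line at 0 h and at 18680 and 20226, 21167 and 22017, and 20879 and 23187 after serum. The changes were 1.01 ± 0.14, 1.16 ± 0.14 and 1.19 ± 0.14 (adjusted p = 9.69e-07 at 12 h). E2F1 libraries were at 11380 and 9506 at 0 h and 10912 and 12100, 12768 and 11691, and 12810 and 12822 later, with no call. Pgam1 under doxycycline alone was at 9639 and 10704, 7269 and 9680, and 7541 and 6609. Gapdh, glyceraldehyde 3-phosphate dehydrogenase, rose with serum by 0.81, 0.83 and 0.70 (SE 0.15 each), from 1072 and 1467 to 1941 to 2432. It is often used as a loading control. Its level here is uncertain, because 96 other genes of the annotation, 91 of them pseudogenes, hold a stretch of at least 150 bases with at least 97% identity to it. Pgk1, phosphoglycerate kinase, was called at 12 h in both series. Pgk1 in the E2F1 line was at 15370 and 14397 at 0 h, 15262 and 19367 at 2 h, 22026 and 20105 at 6 h, and 25725 and 25430 at 12 h, a rise of 0.78 ± 0.21 (adjusted p = 0.00361). The EV 0 h libraries were far apart, at 14622 and 25742, so the serum rises of 0.72 ± 0.21 at 6 h and 0.73 ± 0.21 at 12 h, to 29163 to 35667, rested on replicate 1. Without it they were 0.31 (adjusted p = 0.187) and 0.33 (0.176). The call at 6 h was also lost with quantile normalization (0.0746), and that at 12 h without replicate 2 of that group (0.059). Aldoa, fructose bisphosphate aldolase, rose by 0.64 ± 0.14 at 6 h of serum, from 16399 and 25114 to 30753 and 32387. Its calls of 0.39 ± 0.14 at 2 h and 0.34 ± 0.14 at 12 h did not hold without replicate 1 of EV 0 h (0.08, adjusted p = 0.585, and 0.03, adjusted p = 0.836). With quantile normalization the 2 h value turned to −0.12. The call of Tpi1, triose phosphate isomerase, at 12 h of serum (0.36 ± 0.12) was likewise lost without that library (0.16, adjusted p = 0.287), with quantile normalization (0.171) and without replicate 2 of serum 12 h (0.173). Pkm, pyruvate kinase, rose by 0.59 ± 0.12 at 12 h of serum, to 85935 and 93990 from 53670 and 66164. Its rise by 0.45 ± 0.12 at 6 h was lost with quantile normalization (adjusted p = 0.0975), with equal totals (0.0732) or without replicate 1 of EV 0 h (0.0655). Leaving out either EV 0 h library ended no serum call of Pgam1, Gapdh or Ldha.

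**Figure D3:**
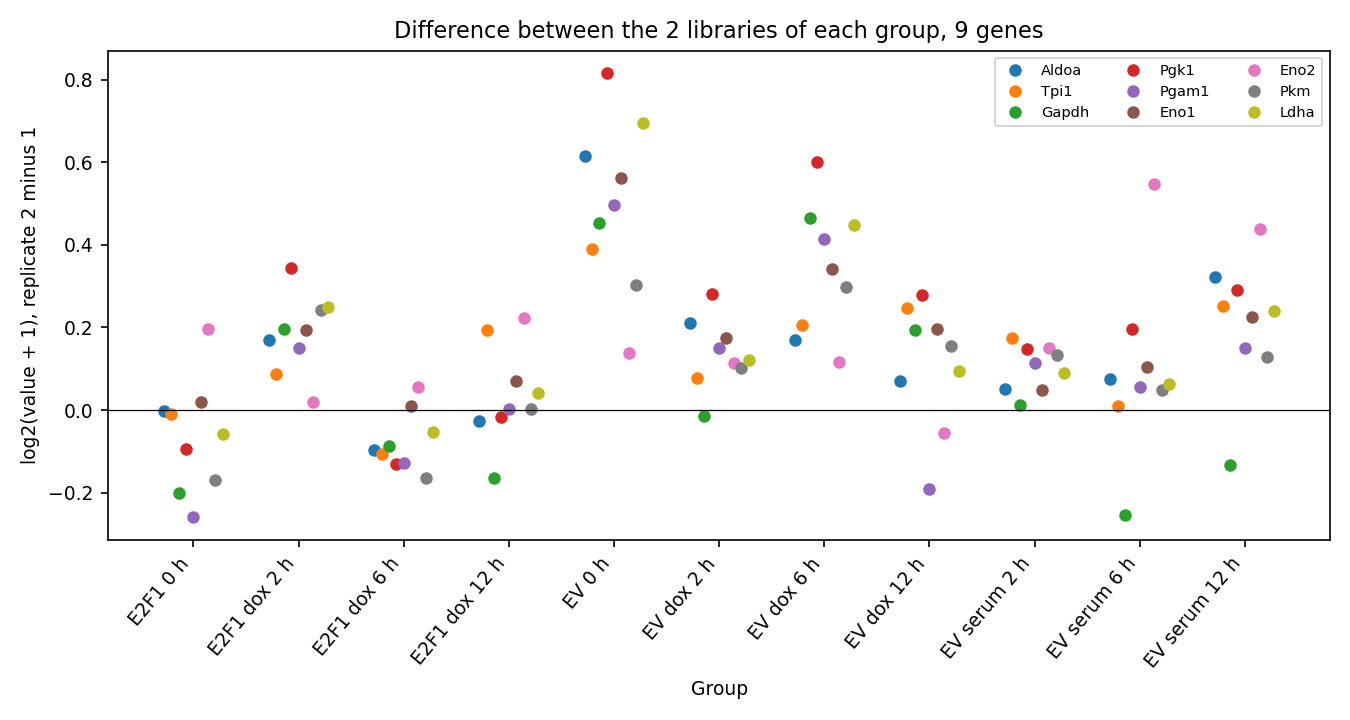
Difference in log2(value + 1) between replicates 2 and 1 of each group, for the 8 lower glycolysis genes and Ldha. EV 0 h shows all 9 genes above 0, 4 of them by at least 0.5, with Pgk1 and Ldha at the top. All 9 are also above 0 in the E2F1 line at 2 h and the EV line at 6 h of doxycycline and 2 h of serum.

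Of 16 hypoxia-response genes outside glycolysis, 11 were higher in replicate 2 of EV 0 h, 3 of them by at least 0.5, among them Bnip3 at 938 and 1880 and Egln3 at 76 and 211, named after their values were seen. The same list was higher in replicate 2 in 16 of 16 genes in the E2F1 line at 2 h, 15 of 16 in the EV line at 2 h of doxycycline and 12 of 16 at 6 h of serum, so EV 0 h did not stand apart in that count. Their part in the results was not tested. Eno2 (chr6:124760053-124769673), the neuronal enolase, fell with serum from 2165 and 2382 to 1236 and 1372 at 2 h, 845 and 1236 at 6 h, and 737 and 999 at 12 h, a change of −1.40 ± 0.15 at 12 h (adjusted p = 2.62e-07). Eno2 in the E2F1 line was at 1955 and 2239 at 0 h, 2261 and 2292 at 2 h, 1465 and 1523 at 6 h, and 866 and 1010 at 12 h, a change of −1.16 ± 0.15 at 12 h (adjusted p = 3.01e-06). The 6 h fall by 0.49 was lost without replicate 2 of 0 h (adjusted p = 0.108) or replicate 1 of 6 h (0.0657). Eno2 under doxycycline alone was at 2048 and 2217, 2024 and 2195, and 2345 and 2256. Eno1, the ubiquitous enolase, was called higher with serum and lower in the E2F1 line. With serum it was at 26906 and 27822, 35468 and 38114, and 34126 and 39899, against 19559 and 28873 at 0 h, a rise of 0.63 ± 0.14 at both 6 h and 12 h. Eno1 in the E2F1 line was at 22133 and 22434 at 0 h, 19746 and 22585 at 2 h, 19776 and 19924 at 6 h, and 16161 and 16965 at 12 h. The fall by 0.43 at 12 h (SE 0.14, adjusted p = 0.0145) was lost without replicate 1 of 12 h (0.076) or replicate 2 of 0 h (0.0611). Eno1 under doxycycline alone was at 18651 and 21060, 20357 and 25791, and 17413 and 19960. Its change there at 12 h was −0.35 ± 0.14, not called (adjusted p = 0.207), and the E2F1 change minus that change was −0.08 ± 0.20 (adjusted p = 0.772). Eno1 made up at least 86.7% of enolase transcripts per kb in every library. It shares near-identical stretches with 2 other genes, so its level and this share are uncertain.

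Ldha (chr7:46841475-46855627), the lactate dehydrogenase subunit that favours lactate formation, rose in both series, and Ldhb, the subunit that favours pyruvate formation, fell in both. With serum, Ldha went from 13042 and 21128 at 0 h to 31617 and 33624 at 2 h, 46642 and 48750 at 6 h, and 42952 and 50727 at 12 h. The changes were 0.97 ± 0.16, 1.52 ± 0.16 (2.87-fold, adjusted p = 2.06e-07) and 1.49 ± 0.16, and every serum library was above both 0 h libraries. Ldha in the E2F1 line was at 18056 and 17353 at 0 h, 19756 and 23468 at 2 h, 25650 and 24729 at 6 h, and 24141 and 24851 at 12 h. The 6 h rise was 0.51 ± 0.16 (adjusted p = 0.0152) and the 12 h rise 0.47 ± 0.16 (adjusted p = 0.0193). At 6 h the call was lost without replicate 1 of 6 h (adjusted p = 0.0749) or replicate 2 of 0 h (0.0751). At 12 h leaving out any 1 of the 4 libraries ended it, with adjusted p of 0.052 to 0.0852. Under doxycycline the EV line was at 16668 and 18117, 12100 and 16510, and 11178 and 11943, not called, and the difference between the lines was 0.99 ± 0.23 at 12 h (adjusted p = 0.00165). Ldhb (chr6:142490249-142507957) went with serum from 3329 and 3525 to 2664 and 2685, 1760 and 1430, and 2175 and 2304. It fell by 1.11 at 6 h (SE 0.13, adjusted p = 5.62e-07) and by 0.61 at 12 h. The fall by 0.36 at 2 h was lost without replicate 2 of EV 0 h (adjusted p = 0.0933), without either serum library (0.07 and 0.0622) and against EV doxycycline at 2 h (0.0505). Ldhb in the E2F1 line was at 4116 and 4716 at 0 h, 3540 and 3575 at 2 h, 3052 and 3700 at 6 h, and 2106 and 2356 at 12 h. The change at 12 h was −0.98 ± 0.13 (adjusted p = 3.47e-06), and that of −0.39 ± 0.13 at 6 h was lost without replicate 1 of 6 h (adjusted p = 0.205) or replicate 2 of 0 h (0.152). Ldhb under doxycycline alone was at 3168 and 3410, 3056 and 3270, and 2874 and 3948. Per kb, the Ldha share of lactate dehydrogenase transcripts was 67.5% and 63.6% in the E2F1 line at 0 h and 84.5% and 83.3% at 12 h. It was 65.0% and 74.0% in the EV line at 0 h and 92.6% and 94.2% after 6 h of serum. These shares are uncertain, because Ldhb shares a near-identical stretch of 1002 bases with 1 pseudogene. Slc16a1 (MCT1), a transporter of lactate and pyruvate, was the 1 gene called at 2 h in the E2F1 line. It was at 3166 and 2665 at 0 h, 3825 and 4332 at 2 h, 4543 and 3975 at 6 h, and 3332 and 3012 at 12 h. The rise of 0.49 ± 0.12 at 2 h (adjusted p = 0.039) was lost without either 2 h library or replicate 2 of 0 h (adjusted p = 0.111, 0.36 and 0.435), while that of 0.55 ± 0.12 at 6 h had an adjusted p of 0.000768. With serum it went from 2943 and 3788 to 7519 and 7466, 4903 and 5637, and 4850 and 4253, changes of 1.17 ± 0.12, 0.65 ± 0.12 and 0.44 ± 0.12, the last lost without replicate 1 of EV 0 h (adjusted p = 0.0829). Slc16a1 under doxycycline alone was at 3921 and 4152, 3634 and 3826, and 3699 and 3659. Its E2F1 change minus its EV doxycycline change was not called at 2 h, 6 h or 12 h.

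The 4 kinases that switch pyruvate dehydrogenase off changed in different directions, and Pdk2 and Pdk4 fell in both series while Pdk3 rose in both. Pdk2 (chr11:95026258-95041354) changed furthest of the 34 genes in the E2F1 line. It was at 551 and 631 at 0 h, 513 and 407 at 2 h, 256 and 320 at 6 h, and 137 and 117 at 12 h. It fell by 1.04 at 6 h (SE 0.18, adjusted p = 0.00012) and fell by 2.21 at 12 h (SE 0.18, 0.216 of the starting level, adjusted p = 1.15e-08). With serum it fell at once and then came part of the way back, from 605 and 557 at 0 h to 54 and 77 at 2 h, 105 and 112 at 6 h, and 220 and 203 at 12 h. The changes were −3.15 ± 0.18, −2.41 ± 0.18 and −1.45 ± 0.18. The 2 courses crossed, and the E2F1 change was above the serum change by 2.78 ± 0.26 at 2 h and below it by 0.76 at 12 h, where the adjusted p of 0.021 became 0.063 to 0.0786 without any 1 of 4 libraries (replicate 2 of E2F1 12 h, E2F1 0 h or EV 0 h, or replicate 1 of serum 12 h). Pdk2 under doxycycline alone was at 505 and 515, 725 and 672, and 682 and 744. The authors' deposited table for E2F1 at 12 h lists 1 of the 34 genes, Pdk2, at a log2 fold change of −2.21.

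Pdk3 (chrX:93764607-93832201) rose with E2F1. It was at 1527 and 1451 at 0 h, 1511 and 1489 at 2 h, 2843 and 2711 at 6 h, and 3077 and 3038 at 12 h. The rise was 0.90 ± 0.09 at 6 h (adjusted p = 1.47e-07) and 1.04 ± 0.09 at 12 h (2.05-fold, adjusted p = 1.82e-08). Serum libraries were at 1672 and 1711, 1630 and 1907, and 1893 and 1833, against 1297 and 1469 in the EV line at 0 h, rises of 0.29, 0.35 and 0.43 (SE 0.09 each). The first of these was lost under quantile normalization (adjusted p = 0.107) and without replicate 1 of EV 0 h (0.0978), turned to −0.08 with equal totals (0.378), and was lost against EV doxycycline at 2 h (0.225). The second was lost with equal totals (0.144) and when the fit held only the groups compared (0.0565). The E2F1 change was larger than the serum change at 12 h by 0.61 ± 0.13 (adjusted p = 0.00065). Pdk3 under doxycycline alone was at 1512 and 1593, 1547 and 1450, and 1340 and 1239. Pdk4 (chr6:5483351-5496309), the kinase known for its induction by starvation, stood in E2F1 cells at 3396 and 3299 before doxycycline, 2820 and 2672 at 2 h, 1559 and 1564 at 6 h, and 1936 and 1958 at 12 h. It fell by 1.10 at 6 h (SE 0.09, adjusted p = 1.01e-08) and 0.78 at 12 h. With serum it went from 4982 and 5154 to 3419 and 3002, 1111 and 1255, and 1780 and 1823, changes of −0.66 ± 0.09, −2.10 ± 0.09 and −1.49 ± 0.09. Pdk4 under doxycycline alone was at 4885 and 5602, 4907 and 4443, and 5590 and 6081, and at 0 h the E2F1 line was lower than the EV line by 0.60 ± 0.09 (adjusted p = 0.000264). Pdk1, a known target of HIF, stood in E2F1 cells at 1881 and 2216 before doxycycline, 1653 and 1890 at 2 h, 1875 and 2114 at 6 h, and 1068 and 1274 at 12 h, a fall by 0.81 (SE 0.19, adjusted p = 0.00104). With serum it went from 2081 and 3149 to 852 and 959, 1361 and 1378, and 1237 and 1934. The changes were −1.50 ± 0.19, −0.90 ± 0.19 and −0.73 ± 0.19, the last lost without replicate 2 of EV 0 h (adjusted p = 0.0676) or replicate 1 of serum 12 h (0.0803). Pdk1 under doxycycline alone was at 1808 and 1917, 2315 and 2774, and 2131 and 2322. Its E2F1 change minus its EV doxycycline change was not called at 12 h. Pdha1, the catalytic subunit of the enzyme itself, was at 5401 and 5312 in the E2F1 line at 0 h and 3484 and 3747 at 12 h, a fall by 0.57 (SE 0.08, adjusted p = 4.58e-06). It was called at no time of serum, with all serum libraries at 5236 to 6351. Per kb, Pdk4 and Pdk3 exchanged places. In the E2F1 line Pdk3 went from 30.1% and 28.5% of kinase transcripts at 0 h to 62.1% and 61.0% at 12 h, Pdk4 from 48.9% and 47.2% to 28.5% and 28.7%, and Pdk2 from 8.8% and 10.0% to 2.2% and 1.9%. The summed level was 1979.5 and 1990.56 normalized counts per kb at 0 h and 1933.5 and 1944.7 at 12 h. Between these times it was lower, at 1767.88 and 1714.09 at 2 h and 1876.12 and 1876.96 at 6 h. Per kb, the makeup thus changed while the 0 h and 12 h sums lay close to each other. Sums of counts not divided by length would weigh the kinases differently, and were not compared. After 6 h of serum the sum was 1161.06 and 1314.63, against 2384.2 and 2622.47 in the EV line at 0 h.

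**Figure D4:**
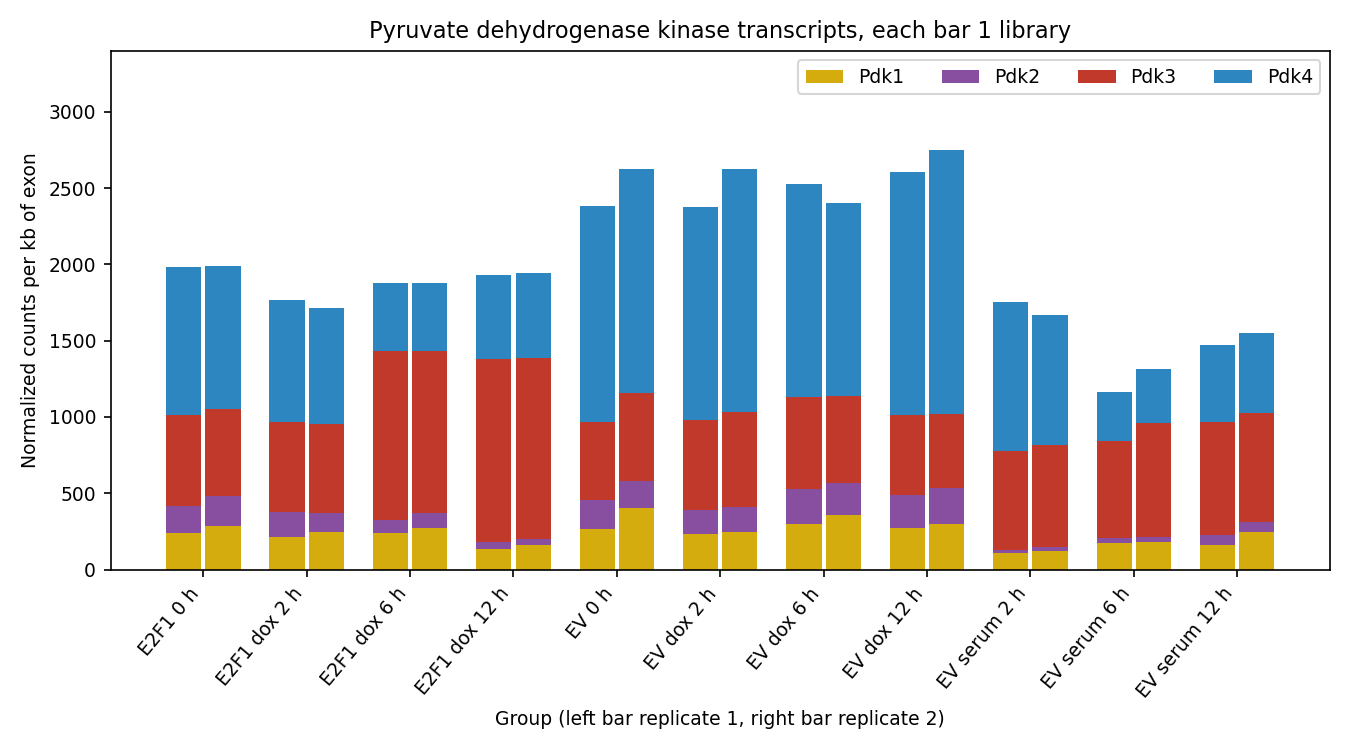
Stacked normalized counts per kb of exon of Pdk1 to Pdk4, each bar 1 library. In the E2F1 line the bars at 0 h and 12 h are close in height, those at 2 h and 6 h are lower, and the Pdk3 part grows at 6 h and 12 h. After serum the bars are lower, with smaller Pdk4 and Pdk2 parts.

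In the oxidative branch of the pentose phosphate pathway, 0, 1 and 2 of the 3 genes were called after 2, 6 and 12 h of serum, all higher. The shares of all genes called higher at these times were 37.5%, 36.5% and 36%. G6pdx, the entry enzyme that makes NADPH, rose at 12 h of serum by 0.58 ± 0.12 (adjusted p = 0.00046), from 2091 and 2254 to 3134 and 3371. Its rise by 0.37 ± 0.12 at 6 h was lost with quantile normalization (adjusted p = 0.161), with equal totals (0.244), without replicate 1 of EV 0 h (0.079) and without replicate 2 of serum 6 h (0.14). Pgls, the lactonase, rose by 0.37 ± 0.09 at 12 h of serum, lost with quantile normalization (adjusted p = 0.117). Pgd, which makes the second NADPH, was at 7294 and 6439 in the E2F1 line at 0 h and 4691 and 4202 at 12 h, a fall by 0.63 (SE 0.10, adjusted p = 1.89e-05), with no serum call. In the EV line Pgd rose after 2 h of doxycycline from 4984 and 5308 to 6835 and 7871 (0.51 ± 0.10, adjusted p = 0.00365), lost without replicate 2 of that group (0.0827). The non-oxidative branch differed between its enzymes. Rpia, ribose 5-phosphate isomerase, which yields the ribose of nucleotides, rose with E2F1 from 961 and 608 at 0 h and 684 and 748 at 2 h to 1351 and 1209 at 6 h and 1225 and 1440 at 12 h. The changes were 0.74 ± 0.17 (adjusted p = 0.00132, and 0.0505 without replicate 2 of 0 h) and 0.80 ± 0.17 (adjusted p = 0.000487). With serum it was called at 2 h alone, 0.55 ± 0.17, lost with equal totals (adjusted p = 0.347) or without replicate 1 of EV 0 h (0.0669). Rpia shares stretches of at least 97% identity with 19 other genes, so its level is uncertain. Rpe, the epimerase, rose in both series, by 0.35 ± 0.10 and 0.34 ± 0.10 at 6 h and 12 h of E2F1, the first lost without replicate 1 of 6 h (adjusted p = 0.102). With serum it rose by 0.34, 0.51 and 0.81 (SE 0.10 each), to 1646 and 1754 at 12 h from 962 and 977, and the 2 h value turned to −0.03 with equal totals (0.788). Taldo1 (chr7:141392199-141402968), transaldolase, rose with serum at every time, from 3299 and 3373 to 4705 and 5504, 6475 and 5529, and 8584 and 8044. The changes were 0.61 ± 0.13, 0.84 ± 0.13 and 1.32 ± 0.13 (2.49-fold, adjusted p = 8.64e-08). The 2 h call was lost with quantile normalization (adjusted p = 0.0961), with equal totals (0.0957) and against EV doxycycline at 2 h (0.3). E2F1 libraries were at 3791 and 2970, 3654 and 3847, 3912 and 3033, and 3979 and 4027 from 0 h to 12 h, with no call. Taldo1 under doxycycline alone was at 4091 and 5110, 3515 and 3372, and 3136 and 3244, and the 2 h call of 0.45 ± 0.13 (adjusted p = 0.0392) was lost when the fit held only the groups compared (0.0591) and without replicate 2 of 2 h (0.36) or either EV 0 h library (0.132 and 0.113). Tkt, transketolase, was at 5814 to 7444 and was called in no comparison with 0 h.

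Txnip (chr3:96557957-96561883), which restrains glucose uptake and is switched on by glucose, made the largest change of the 34 genes over these comparisons. After serum it was at 221 and 311 at 2 h, 2008 and 3007 at 6 h, and 3120 and 4529 at 12 h, against 8768 and 9387 in the EV line at 0 h. It was at 0.029 of the starting level at 2 h (−5.11 ± 0.25, adjusted p = 3.65e-12), with changes of −1.88 ± 0.25 and −1.27 ± 0.25 later. No serum library reached the 0 h level. Txnip in the E2F1 line was at 6614 and 9295 at 0 h, 6476 and 5317 at 2 h, 3636 and 5527 at 6 h, and 3620 and 5359 at 12 h. It fell by 0.81 at 6 h (SE 0.25, adjusted p = 0.0108) and by 0.83 at 12 h (SE 0.25, adjusted p = 0.00693), lost without replicate 1 of the later group (adjusted p = 0.17 and 0.12) or replicate 2 of 0 h (0.138 and 0.104). Under doxycycline the EV line was at 5373 and 7003, 8814 and 9114, and 11669 and 13103, with no call, and the difference between the lines was −1.28 ± 0.35 at 12 h (adjusted p = 0.00508). Its paralog Arrdc4 was at 1542 and 1611 in the EV line at 0 h and 151 and 226 after 2 h of serum (−3.09 ± 0.20).

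E2F1 and serum were then set side by side, since these comparisons share no library. At 12 h, 20 genes were called with E2F1 and 27 with serum, and 12 were called in the same direction in both, 60% of the first and 44.4% of the second. Over all genes the calls in the same direction were 55.7% of the E2F1 calls and 52.2% of the serum calls. Higher in both were Pgk1, Ldha, Pdk3 and Rpe, and lower in both were Pfkm, Pfkfb4, Eno2, Ldhb, Pdk1, Pdk2, Pdk4 and Txnip. Of these genes, only Pdk1 was not called for the E2F1 change minus the EV doxycycline change at 12 h. In opposite directions were 4, Slc2a1, Pfkl, Pfkfb3 and Eno1, all lower with E2F1 and higher with serum, beside 9.22% of all genes called in opposite directions. Of these 4, the E2F1 change differed from the EV doxycycline change at 12 h in Pfkl and Pfkfb3, and that difference was not called in Slc2a1 or Eno1. At 6 h, 12 were called in the same direction, 75.0% of the 16 E2F1 calls and 46.2% of the 26 serum calls, and 3 were opposite, Slc2a1, Pfkl and Pfkfb3. Over all genes these shares were 45.8% and 35.1%, and 12.6% of genes were opposite. The test of the difference called 18 of the 34 at 2 h (7 higher with E2F1, 11 lower), 23 at 6 h (10 higher, 13 lower) and 18 at 12 h (3 higher, 15 lower), beside 56.7%, 57.9% and 48.8% of all genes. Over all genes 26.6%, 30.3% and 25% were higher with E2F1 and 30.2%, 27.6% and 23.8% lower. With quantile normalization the split at 2 h was 13 and 7, and with equal totals 13 and 5. The median difference at 12 h was −0.40, beside 0.02 over all genes. At 12 h the genes that were lower with E2F1 than with serum included Hk2 (−2.48 ± 0.31), Pfkfb3 (−3.10 ± 0.50), Ldha (−1.02 ± 0.23) and Taldo1 (−1.06 ± 0.18), and the 3 that were higher were Pdk3, Pdk4 (0.71 ± 0.12) and Rpia (0.68 ± 0.24, lost without any 1 of 4 libraries, at adjusted p of 0.0701 to 0.18, and at 0.0553 in a fit of only the groups compared).

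**Figure D5:**
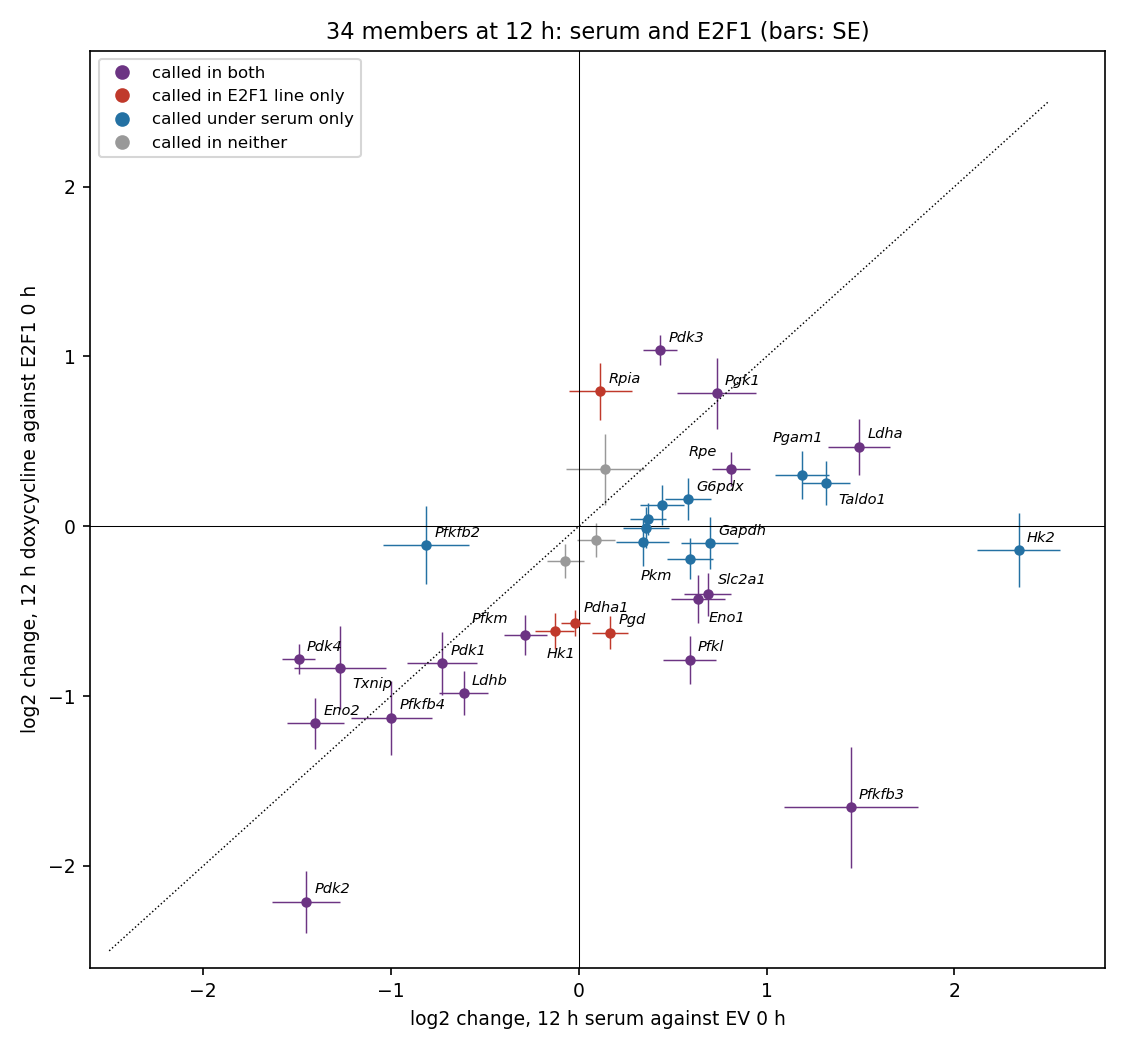
Log2 change of each of the 34 genes after 12 h of E2F1 induction against its change after 12 h of serum (points with SE bars, coloured by where the gene was called, dotted line marking equal changes). Pdk2, Eno2 and Pdk4 lie at lower left, Pgk1 and Ldha at upper right, and Pfkfb3 and Hk2 far to the right of the line.

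The E2F1 line was also compared with the EV line, to take off what doxycycline does alone. The change with E2F1 minus that with EV doxycycline called 0 of the 34 at 2 h, 9 at 6 h (5 higher, 4 lower) and 18 at 12 h (6 higher, 12 lower), beside 0.143%, 34.5% and 50.5% of all genes. Over all genes 0.0535%, 22.2% and 27.3% were higher and 0.0892%, 12.3% and 23.3% lower. At 2 h limma gave 3 at an unadjusted p under 0.05, for which the share of all genes is not given. The 9 at 6 h became 4 without replicate 1 of E2F1 6 h and 5 without replicate 2 of EV 0 h, and their split was 4 higher and 10 lower with quantile normalization and 4 and 7 with equal totals. The lines differed before any stimulus. At 0 h 7 genes were called, 6 higher in the E2F1 line (Slc2a1, Pfkm, Pfkp, Pfkfb3, G6pdx and Pgd) and Pdk4 lower, beside 15% of all genes (8.86% higher and 6.17% lower). Pdk4 alone remained without replicate 1 of the E2F1 0 h group.

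Other genes of glucose and pyruvate metabolism were counted from lists of the same making, and their counts are to be read against the shares of all genes called, 51.7% and 61.5% at 6 h and 12 h of E2F1 and 70.9%, 67.5% and 65.7% at 2, 6 and 12 h of serum. Of 22 other glycolysis and pentose phosphate genes in the table, 12 were called at 6 h with E2F1 (7 higher, 5 lower), 14 at 12 h (7 and 7), and 18, 18 and 14 after 2, 6 and 12 h of serum, which is 54.5% and 63.6%, and 81.8%, 81.8% and 63.6%. Tigar, a phosphatase that lowers fructose 2,6-bisphosphate and diverts sugar into the pentose phosphate pathway, made the largest of these changes. Tigar in the E2F1 line was at 98 and 91 at 0 h, 152 and 111 at 2 h, 1244 and 994 at 6 h, and 580 and 512 at 12 h, a rise of 3.54 ± 0.22 at 6 h (adjusted p = 4.13e-10). Serum raised it less, to 310 and 303 at 2 h from 105 and 101 (1.56 ± 0.22). Pcx, pyruvate carboxylase, fell with serum, by 2.58 at 6 h (SE 0.14), and Shpk, sedoheptulokinase, by 2.87 at 2 h (SE 0.28), and neither was called with E2F1. Of 9 genes for pyruvate entry into mitochondria, 4 were called at 6 h with E2F1 (3 higher, 1 lower) and 5 at 6 h of serum (3 and 2), both below the share of all genes. Pdp1, the phosphatase that switches pyruvate dehydrogenase back on, fell by 2.15 at 6 h of serum (SE 0.14) and rose by 0.65 ± 0.14 at 6 h of E2F1. Pdpr, a regulator of that phosphatase, also went in opposite directions. E2F1 took it from 954 and 1054 to 2963 and 2930 by 6 h (1.55 ± 0.12), and serum from 932 and 881 to 369 and 396 (−1.24 ± 0.12). Of 16 citric acid cycle genes, 12 were called at 12 h of serum (11 higher, 1 lower) and 9 at 12 h of E2F1 (6 and 3), or 75% and 56.2%. Idh3a rose in both, by 1.44 ± 0.10 with serum and 0.76 ± 0.10 with E2F1.

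Of 16 hypoxia-response genes outside glycolysis, 12 were called at 2 h of serum (9 higher, 3 lower) and 10 at 12 h of E2F1 (3 higher, 7 lower), or 75% and 62.5%, beside 70.9% and 61.5% of all genes. Vegfa, the vascular growth factor, was at 1796 and 1742 in the EV line at 0 h. Serum took it to 82233 and 74185 at 2 h (5.46 ± 0.16), 10771 and 8253 at 6 h, and 3372 and 2718 at 12 h. Vegfa in the E2F1 line was at 2301 and 1738 at 0 h and 1853 and 2269 at 2 h. It was at 3369 and 2849 at 6 h, above both 0 h libraries, and at 2019 and 1672 at 12 h. Mxi1, a repressor of the Myc network, went in opposite directions, from 1463 and 1354 to 4541 and 4278 at 12 h of E2F1 (1.65 ± 0.15), and from 1943 and 1853 to 309 and 324 at 6 h of serum (−2.58 ± 0.15). Of 10 regulators of glycolytic genes, 8 were called at each time of serum (4 higher, 4 lower) and 7 at 12 h of E2F1 (1 higher, 6 lower), or 80% and 70%. Myc, an activator of glycolytic genes, rose by 1.26 ± 0.15 at 2 h of serum and fell by 0.97 at 12 h of E2F1 (SE 0.15), and Foxo3, a factor of starved cells that growth signals switch off, fell by 2.03 at 2 h of serum (SE 0.12) and by 0.62 at 12 h of E2F1.

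The median change of these lists at 12 h of E2F1 and at 12 h of serum was 0.04 and −0.11 for the other glycolysis and pentose phosphate genes, 0.04 and 0.04 for pyruvate entry, 0.11 and 0.42 for the citric acid cycle, −0.15 and 0.02 for the hypoxia response and −0.34 and −0.10 for the regulators. Over all genes it was −0.02 and 0.05.

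The authors' deposited tables of fold changes list only genes past a log2 fold change of about 2 in either direction. For serum at 2 h the authors' deposited table lists Txnip at −5.09, Hk2 at 4.31, Pdk2 at −3.15, Pfkfb3 at 3.04 and Slc2a1 at 2.72. For serum at 6 h the authors' deposited table lists Hk2 at 2.99, Pdk2 at −2.41 and Pdk4 at −2.09, and for 12 h Hk2 at 2.37. Some of these genes overlap exons of others in the annotation (Slc2a1 with Gm12868, Hk1 with Hk1os, Pfkm with Senp1, Txnip with Gm15441), and whether reads were counted by strand is not given in the sources used here, so reads of such pairs may not be told apart. Besides Gapdh and Rpia, near-identical stretches in other genes reached 1736 bases for Eno1, 1593 for Pkm, 1255 for Pgk1 and 1197 for Pfkfb2. They reached 1002 for Ldhb, 873 for Gpi1 and 765 for Pgam1, and were shorter for Rpe, Txnip, Pdha1, Tpi1 and Hk1. The levels of these genes may hold reads of their near-identical partners.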

How the data were processed

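RNA with poly(A) tails from 22 NIH/3T3 libraries was sequenced, and the authors deposited 1 table of whole-number normalized counts per gene, treated here as a score because the scaling method is not given in the sources used here. Per the submitters' processing notes the tools were FastQC, Trimmomatic, HISAT2, featureCounts and DESeq2 with mm10, with no versions or roles. The authors' 9 deposited tables of log2 fold changes and p-values list only genes past a log2 change of about 2, and were only quoted. Read depth is therefore unknown, and the sums per library given above are of normalized counts.

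The table was filtered at a value of at least 10 in at least 2 libraries, and log2(value + 1) was fitted with limma 3.58.1 in R 4.3.3, with 1 mean for each of 11 groups, a trended prior and Benjamini-Hochberg adjustment over all 11208 genes at 0.05. Sharing 1 spread over all groups gave 11 residual degrees of freedom from 2 libraries a group. On simulated data for E2F1 at 12 h (11207 genes), 86 of 100 genes changed 2-fold and 98 of 100 changed 4-fold were called, as were 11 unchanged genes. The alternatives were a pseudocount of 8, no filter, a mean of at least 500, quantile normalization, equal totals, a replicate block, a fit of only the groups compared, EV doxycycline of the same time as the serum reference, and each library left out. Gene positions are GRCm38 with GENCODE M21, all 34 genes matched by identifier, and promoters are from RefSeq (GRCm38.p6). Stretches shared with other genes were found with BLAST 2.17.0 at 97% identity over 150 bases. Library values are given for genes called with at least a 2-fold change in 1 of the 9 comparisons with 0 h and for their isozymes, other genes by range or where a result turns on them, and at most 4 genes of each other list by the largest change. The genes and lists were chosen with earlier results of these data known.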

Additional observations from a re-analysis of the deposited data

Results flagged for a closer look

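The E2F1 change differed from the EV doxycycline change, by limma's test of the difference itself with adjustment over all genes, in 9 of the 34 genes at 6 h and 18 at 12 h, beside 34.5% and 50.5% of all genes. Values are E2F1 minus EV on the log2 scale. The pyruvate dehydrogenase kinases Pdk2, Pdk3 and Pdk4 had the 3 lowest adjusted p at both times. At 6 h the difference was −1.31 for Pdk2, 0.78 for Pdk3 and −0.98 for Pdk4, and at 12 h −2.51 for Pdk2, 1.14 for Pdk3 and −0.98 for Pdk4, with Pdha1 at −0.52. These kinases were called under every alternative in which they were tested. Pdk2 was not tested in the one that kept a mean of at least 500.

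At 6 h the other differences were 1.01 for Hk2, −1.53 for Pfkfb3, −1.12 for Pfkfb4, 0.74 for Ldha, 0.82 for Rpia and 0.44 for Rpe. The highest adjusted p over the alternatives was 0.12 for Hk2 and 0.0913 for Rpia (both without replicate 2 of E2F1 0 h), 0.109 for Pfkfb3 and 0.128 for Ldha (both without replicate 2 of EV 0 h), and 0.113 for Rpe (without replicate 1 of E2F1 6 h), so each of these 5 calls was lost without at least 1 library.

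At 12 h the glycolytic genes stood at −0.59 for Hk1, −0.53 for Pfkl, −0.68 for Pfkm, −1.45 for Pfkfb3, −0.90 for Pfkfb4, 1.24 for Pgk1, 0.75 for Pgam1 and −1.18 for Eno2. Lactate dehydrogenase split, with Ldha at 0.99 and Ldhb at −0.96. The rises of Pgam1, Pgk1 and Ldha against EV also hold lower EV means at 12 h, though no EV change was called then. Pgam1 went from 10443 to 12816 in the E2F1 line, not called, and from 9793.5 to 7075 in the EV line. Ldha went from 17704.5 to 24496 and from 17085 to 11560.5. Pgk1 went from 14883.5 to 25577.5 and from 20182 to 14194. In the pentose phosphate pathway Pgd was at −0.46, Rpia at 0.88 and Rpe at 0.62, and Txnip was at −1.28. The highest adjusted p was 0.218 for Pfkl (without replicate 1 of EV 0 h), 0.159 for Pfkfb3 (without replicate 2 of E2F1 12 h) and 0.143 for Pfkfb4 (without replicate 1 of E2F1 12 h). The other calls at 12 h held under every alternative in which the gene was tested.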

How the results depend on the processing

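Of 208 calls of the 34 genes over the 16 comparisons, 172 held under every alternative that kept all libraries and 133 also held with each library left out. The values that changed sign were Aldoa at 2 h of serum with quantile normalization (−0.12) and, with equal totals, Pdk3 (−0.0816) and Rpe (−0.0296) at 2 h of serum and Rpe in E2F1 minus serum at 2 h (0.0241). The cause was not tested.

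Calls in the E2F1 line at 2 h went from 1 to 2 with quantile normalization, to 4 in a fit of only the groups compared, and to 0 to 1 with single libraries left out. At 6 h leaving out single libraries gave 10 to 14. Calls with EV doxycycline were 0 to 6 at 2 h and 0 to 8 at 12 h with single libraries left out. The difference between the lines at 6 h gave 14 calls with quantile normalization and 4 to 13 with single libraries left out. The lines at 0 h gave 4 in a fit of only the groups compared and 1 to 6 with single libraries left out. Where a group kept 1 library, it was assumed to vary like the other groups.

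The replicate block gave 5 calls for EV doxycycline at 2 h and 1 at 12 h. A replicate block within each line, chosen after seeing the data, gave 3 at 12 h. Over 55 pairs of groups the correlation of same-numbered libraries' deviations was −0.28 to 0.45 with a median of 0.03, and 18 were above 0.1. All 3 pairs among EV 0 h and EV doxycycline at 6 h and 12 h were above 0.1 (0.303 to 0.455), as were all 3 among the E2F1 line at 0, 6 and 12 h (0.142 to 0.357). The labels do not say that a number marks a shared batch.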

Other observations

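In the EV libraries at 2 h of doxycycline, 10 of 12 targets of NRF2, the factor that answers oxidants, outside the pentose phosphate pathway were called higher by limma, beside 4.93% of all genes. At 6 h and 12 h 0 were called higher. Hmox1, heme oxygenase, rose by 2.04 (adjusted p = 0.0197), Gclc, of glutathione synthesis, by 1.12 (0.0118), Srxn1, sulfiredoxin, by 0.79 (0.00244) and Gsr, glutathione reductase, by 0.73 (0.0197). These are the libraries that lay 14.6% and 8.84% of the way towards the E2F1 line, and the part of this in the result was not tested. After serum 11, 10 and 8 of the 12 were higher at 2, 6 and 12 h, beside 37.5%, 36.5% and 36% of all genes, and with E2F1 5 at 6 h and 6 at 12 h, beside 28.8% and 31.8%.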
